A study of Mus musculus with 6 samples.

Results

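The dystrophin glycoprotein complex was described by 8 genes, *Dmd*, *Utrn*, *Sgca*, *Sgcb*, *Sgcd*, *Dag1*, *Sntb1* and *Dtna*. They were taken by gene symbol from the table of 37979 genes, each matched 1 entry, and all 8 passed the filter on low values. The study asked how loss of Kvβ2, a cytoplasmic subunit of voltage-gated potassium channels encoded by *Kcnab2*, affects skeletal muscle. The hindlimb gastrocnemius (GAS) muscle of untreated male mice, 20 weeks of age, was profiled by RNA-seq in 3 wildtype (WT) and 3 Kvβ2 knockout (KO) mice, numbered 1, 7 and 8 in each genotype. Both genotypes came from matings of Kvβ2+/- mice. The KO mice (Kvβ2-/-) carried the null allele in the whole body and not in muscle alone, and the strain is not given in the sources used here.

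Dystrophin is a long rod-shaped protein under the muscle membrane that binds actin at one end and dystroglycan at the other. Dystroglycan crosses the membrane and binds laminin in the basement membrane once it carries a specific sugar chain, the sarcoglycans form a subcomplex beside it, and dystrobrevins and syntrophins attach signalling proteins on the inside. Loss of dystrophin causes Duchenne muscular dystrophy, loss of a sarcoglycan causes limb-girdle dystrophy, and utrophin is the autosomal relative of dystrophin that is concentrated at the neuromuscular junction.

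Levels are FPKM, fragments counted per kilobase of transcript and relative to the size of the library, so genes of unlike length can be set side by side. FPKM does not adjust for other properties of a transcript, such as its GC content. Differences are log2 fold changes of KO against WT on log2(FPKM + 0.1), from a limma fit to the 12334 genes that averaged 0.5 FPKM or more. A gene was called at a Benjamini-Hochberg adjusted p under 0.05. *Kcnab2* was at 0.233, 0.10 and 0.110 FPKM in WT mice 1, 7 and 8, at 0.0151 FPKM in KO mouse 7, and listed at 0 in KO mice 1 and 8. The estimated depth was 13920000 to 18150000 fragments in the KO libraries and 19230000 to 20140000 in the WT libraries. The libraries also differed in how FPKM depended on the GC content of transcripts. Relative to the mean of the 6 libraries, log2 FPKM changed by -0.403, -0.23 and -0.128 per 10 percentage points of GC content in WT mice 1, 7 and 8, and by 0.176, 0.368 and 0.218 in KO mice 1, 7 and 8. All WT slopes were negative and all KO slopes positive, so this trend and the genotype cannot be told apart. The difference of each member is therefore given with and without a correction for GC content.

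The sequence before the start of transcription is shown for *Dmd*, *Sgca* and *Dag1*, the 3 members whose KO and WT libraries did not overlap. The windows are the 250 bases before the RefSeq start site, on GRCm38.p6, and are written 5′ to 3′ on the strand of the gene. RefSeq windows were found for 6 of the 8 members. *Dmd* and *Dag1* have a pair of windows each, and the one at the start of the annotated gene is shown. Capitals mark matches to the E-box (CANNTG, the letters bound by MyoD and related factors) and, in *Dmd*, also the CArG box bound by serum response factor. Both motifs read as their own reverse complement, so 1 search covers both strands.
Dmd, chrX:82948620-82948869, plus strand: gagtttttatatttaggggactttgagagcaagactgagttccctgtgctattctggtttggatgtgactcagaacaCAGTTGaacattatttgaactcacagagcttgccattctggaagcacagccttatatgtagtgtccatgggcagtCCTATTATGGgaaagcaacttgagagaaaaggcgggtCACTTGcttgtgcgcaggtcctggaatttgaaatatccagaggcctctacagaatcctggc
Sgca, chr11:94976328-94976577, minus strand: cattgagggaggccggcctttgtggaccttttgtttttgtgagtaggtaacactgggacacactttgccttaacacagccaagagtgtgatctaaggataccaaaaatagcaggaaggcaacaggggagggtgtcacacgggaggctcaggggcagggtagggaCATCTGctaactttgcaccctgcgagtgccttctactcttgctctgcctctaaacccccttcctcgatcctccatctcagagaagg
Dag1, chr9:108263959-108264208, minus strand: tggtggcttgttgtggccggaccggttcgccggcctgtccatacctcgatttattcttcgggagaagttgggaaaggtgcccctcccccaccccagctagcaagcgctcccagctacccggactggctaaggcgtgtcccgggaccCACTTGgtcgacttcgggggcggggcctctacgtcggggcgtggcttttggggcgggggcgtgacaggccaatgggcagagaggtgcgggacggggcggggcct

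The *Dmd* window held 2 E-boxes, at 173 and 61 bases before the start, and 1 CArG box at 98 bases, with no overlap among them, while the other *Dmd* window, chrX:85048045-85048294, held none of either. The *Sgca* window held 1 E-box at 86 bases and the *Dag1* window 1 E-box at 104 bases before the start. An E-box was present in 66.2% and a CArG box in 1.47% of the 32851 RefSeq windows of the same length. The 3 windows differed in base composition, with a GC content of 45.2% for *Dmd*, 52.8% for *Sgca* and 67.6% for *Dag1*.

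None of the 8 members was called, against 40 of 12334 tested genes, or 0.324%. With array weights, an alternative limma fit that gives each library a weight by its estimated reliability, 2 members were called, but so were 25.5% of the tested genes. Without weights, 2 members had an unadjusted p under 0.05. These were *Sgca*, higher in the KO mice as were 15.3% of tested genes at that p, and *Dmd*, lower in the KO mice as were 10.9%. For 2 members, *Sgca* and *Dag1*, every KO library was above every WT library, which held for 18.3% of tested genes. For *Dmd* every KO library was below every WT library, which held for 16.2% of tested genes. The other 5 members overlapped between the genotypes. The median log2 fold change was 0.025 over the members and 0.010 over all tested genes.

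**Figure D1:**
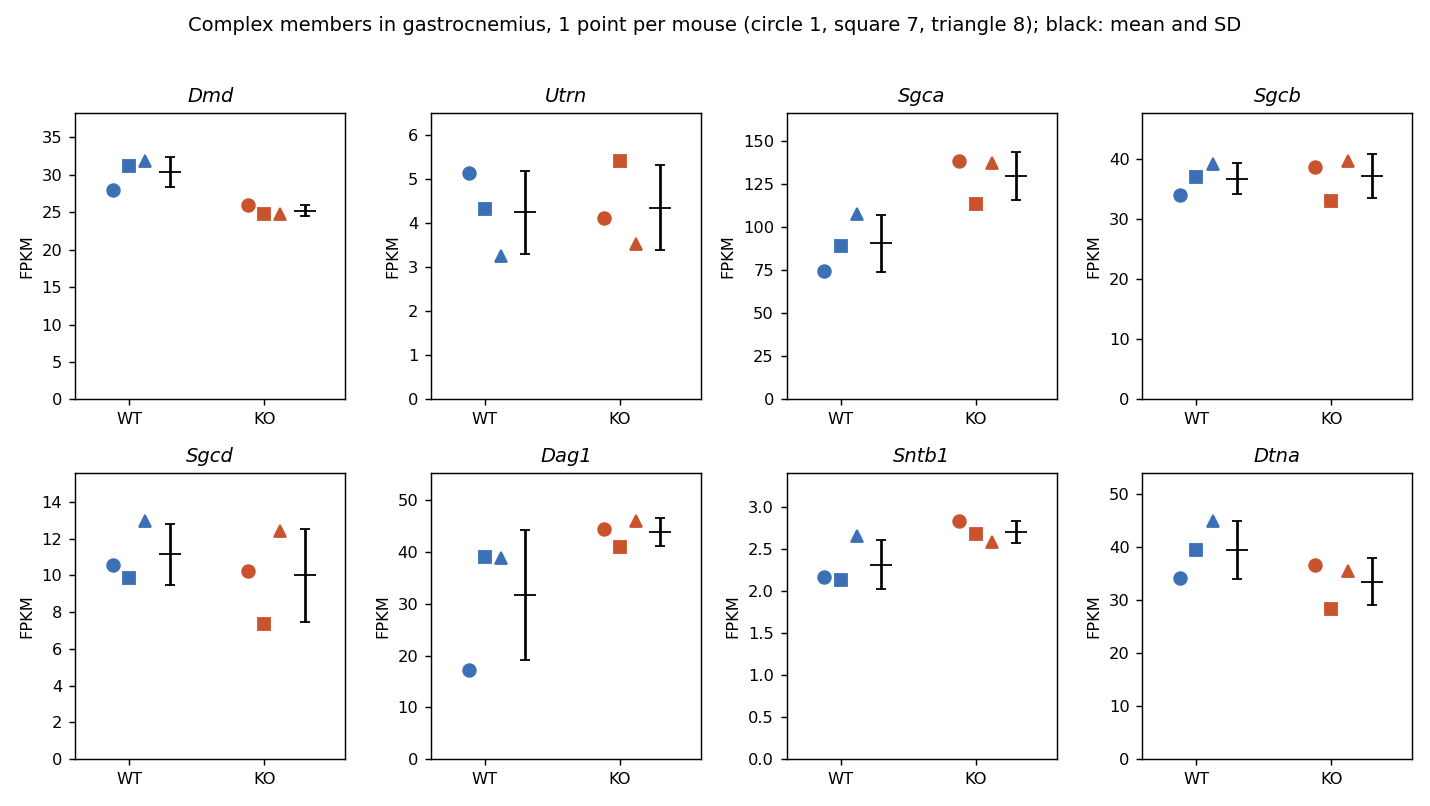
FPKM (vertical axes, each from 0) of the 8 members in the GAS muscle of WT and KO mice, 1 point per mouse, with the mean and SD in black. The KO points lie below the WT points for Dmd and above them for Sgca and Dag1, and WT mouse 1 lies far under the other mice for Dag1.

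In the WT mice, *Sgca* was the highest member, with a mean of 90.4 FPKM, above the next member in every library. *Dtna*, *Sgcb*, *Dag1* and *Dmd* followed with means of 39.5, 36.7, 31.7 and 30.3 FPKM, and neighbours among these 4 overlapped. *Sgcd*, *Utrn* and *Sntb1* came last, each under its neighbour in every WT library. In the KO mice *Sgca* was again first, now followed by *Dag1*, and *Dmd* lay under all KO values of *Dag1*, *Sgcb* and *Dtna*. These orders are without the GC correction. With it, the KO means of *Sgcb* and *Dag1* were 40.2 FPKM each, and *Dmd* again lay under all KO values of *Dag1*, *Sgcb* and *Dtna*.

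*Dmd* (ENSMUSG00000045103) encodes dystrophin and spans chrX:82948870-85206141 on the plus strand of GRCm38. It was at 28.0, 31.1 and 31.9 FPKM in WT mice 1, 7 and 8 and at 26.0, 24.7 and 24.8 FPKM in KO mice 1, 7 and 8. All KO values lay under the lowest WT value, and the KO mice lay closer together than the WT mice. The mean was 30.3 ± 2.03 FPKM in WT and 25.2 ± 0.743 FPKM in KO mice (SD, n = 3). The log2 fold change was -0.27 (SE 0.10, 95% interval -0.50 to -0.031), with a limma adjusted p of 0.158 and a two-sided exact permutation p of 0.1, the smallest that 3 against 3 libraries allow. After the GC correction, the *Dmd* libraries overlapped between the genotypes and the log2 fold change was 0.057 (SE 0.11). The annotation lists 14 transcripts of *Dmd*, and the gene value sums over them, so full-length and short dystrophins were not told apart. The gene also overlaps 5 other annotated genes, of which *Tsga8* is protein-coding.

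*Dag1* (ENSMUSG00000039952, chr9:108204634-108263958, minus strand) encodes both subunits of dystroglycan. It was at 17.2, 39.0 and 38.8 FPKM in WT mice 1, 7 and 8 and at 44.6, 41.0 and 46.1 FPKM in KO mice 1, 7 and 8. The KO mice lay above all WT mice, but WT mice 7 and 8 were close to the KO range and WT mouse 1 stood far under both. The mean was 31.7 ± 12.5 FPKM in WT and 43.9 ± 2.62 FPKM in KO mice (SD, n = 3). The log2 fold change was 0.56 (SE 0.30, 95% interval -0.14 to 1.27), with a limma adjusted p of 0.273 and an exact permutation p of 0.1. Without WT mouse 1 the log2 fold change of *Dag1* was 0.17. WT mouse 1 also had the lowest summed FPKM of 14 myofiber genes, 52480 against 68900 to 81850 in the other 5 mice, and the steepest negative slope on GC content. The part of these differences in the *Dag1* value was not tested.

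The sarcoglycans are single-pass membrane proteins that strengthen the link between dystrophin and dystroglycan. *Sgca* (ENSMUSG00000001508, chr11:94962791-94976327, minus strand) encodes α-sarcoglycan, which is largely restricted to striated muscle. It was at 74.5, 89.1 and 108 FPKM in WT mice 1, 7 and 8 and at 138, 113 and 137 FPKM in KO mice 1, 7 and 8. The genotypes did not overlap, although WT mouse 8 and KO mouse 7 were close. The mean was 90.4 ± 16.6 FPKM in WT and 129.6 ± 14.0 FPKM in KO mice (SD, n = 3). The log2 fold change was 0.53 (SE 0.16, 95% interval 0.16 to 0.90), with a limma adjusted p of 0.106 and an exact permutation p of 0.1. After the GC correction it was 0.082 (SE 0.13) and the libraries overlapped. On the other strand *Sgca* overlaps *Hils1*, a histone-like gene.

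*Sgcb* (ENSMUSG00000029156, chr5:73632749-73647790, minus strand) encodes β-sarcoglycan. It measured 34.0, 36.9 and 39.1 FPKM in WT mice and 38.7, 32.9 and 39.6 FPKM in KO mice, in the order 1, 7 and 8. The genotypes overlapped over most of their range, and KO mouse 7 was the lowest of the 6. KO against WT, the difference was 0.013 on the log2 scale (SE 0.12, 95% interval -0.26 to 0.28), with a limma adjusted p of 0.954. *Sgcd* (ENSMUSG00000020354, chr11:46896253-47988969, minus strand) encodes δ-sarcoglycan, which assembles with β-sarcoglycan into the core of the subcomplex. It measured 10.6, 9.86 and 13.0 FPKM in WT mice and 10.3, 7.35 and 12.4 FPKM in KO mice. Mouse 8 was the highest of each genotype and KO mouse 7 the lowest of all. Its log2 fold change was -0.18 (SE 0.21, 95% interval -0.66 to 0.30), with a limma adjusted p of 0.610. Neither interval leaves room for a difference of the size of 1 on the log2 scale.

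*Utrn* (ENSMUSG00000019820, chr10:12382188-12869365, minus strand), which encodes utrophin, was at 5.14, 4.33 and 3.25 FPKM in WT mice 1, 7 and 8. It was at 4.12, 5.41 and 3.52 FPKM in KO mice 1, 7 and 8. The genotypes overlapped, and the spread within each was larger than the distance between their means, 4.24 ± 0.948 FPKM in WT and 4.35 ± 0.964 FPKM in KO mice (SD, n = 3). The genotypes differed by 0.037 on the log2 scale (SE 0.22, 95% interval -0.47 to 0.55), with a limma adjusted p of 0.928 and an exact permutation p of 0.8. Utrophin is also made by endothelial cells. The summed FPKM of 10 endothelial markers, none of them at 0, was 110.7, 103.6 and 81.05 in WT mice 1, 7 and 8 and 109.4, 115.6 and 100.6 in KO mice 1, 7 and 8. KO mouse 7 was the highest and WT mouse 8 the lowest by both *Utrn* and this sum. They were also the extremes of the summed FPKM of 10 Schwann cell markers, at 143.0 and 29.6. For the myofiber gene *Mb* they were again the extremes, at 3150 and 543 FPKM. The match was thus not particular to endothelial markers, and the part of endothelial RNA in the *Utrn* values was not tested. In whole muscle, fewer cells of a type and less RNA per cell cannot be told apart. The summed FPKM of 10 genes of nuclei under the neuromuscular junction ranged from 42.7 to 62.6 in WT and from 56.5 to 61.9 in KO mice. WT mouse 1 had the lowest of these sums, and the part of such nuclei in the *Utrn* values was not tested.

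Syntrophins are adaptors that bind dystrophin, dystrobrevin and signalling proteins. *Sntb1* (ENSMUSG00000060429, chr15:55636388-55906949, minus strand), which encodes β1-syntrophin, measured 2.16, 2.13 and 2.65 FPKM in WT mice and 2.84, 2.68 and 2.58 FPKM in KO mice. WT mouse 8 lay within the KO range, and the other WT mice lay under it. The estimate for KO against WT was 0.22 on the log2 scale (SE 0.15, 95% interval -0.12 to 0.56), with a limma adjusted p of 0.369 and an exact permutation p of 0.2. *Sntb1* was the member measured on the fewest fragments, an estimated 190 to 260 per library, against 5400 to 9570 for *Dmd*. *Dtna* (ENSMUSG00000024302, chr18:23415135-23659715, plus strand) encodes α-dystrobrevin, a relative of dystrophin that binds it through a coiled coil. It measured 34.1, 39.4 and 45.0 FPKM in WT mice and 36.6, 28.4 and 35.5 FPKM in KO mice. WT mouse 1 lay inside the KO range and KO mouse 7 was the lowest. Its log2 fold change was -0.24 (SE 0.15, 95% interval -0.59 to 0.11), with a limma adjusted p of 0.341 and an exact permutation p of 0.3.

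**Figure D2:**
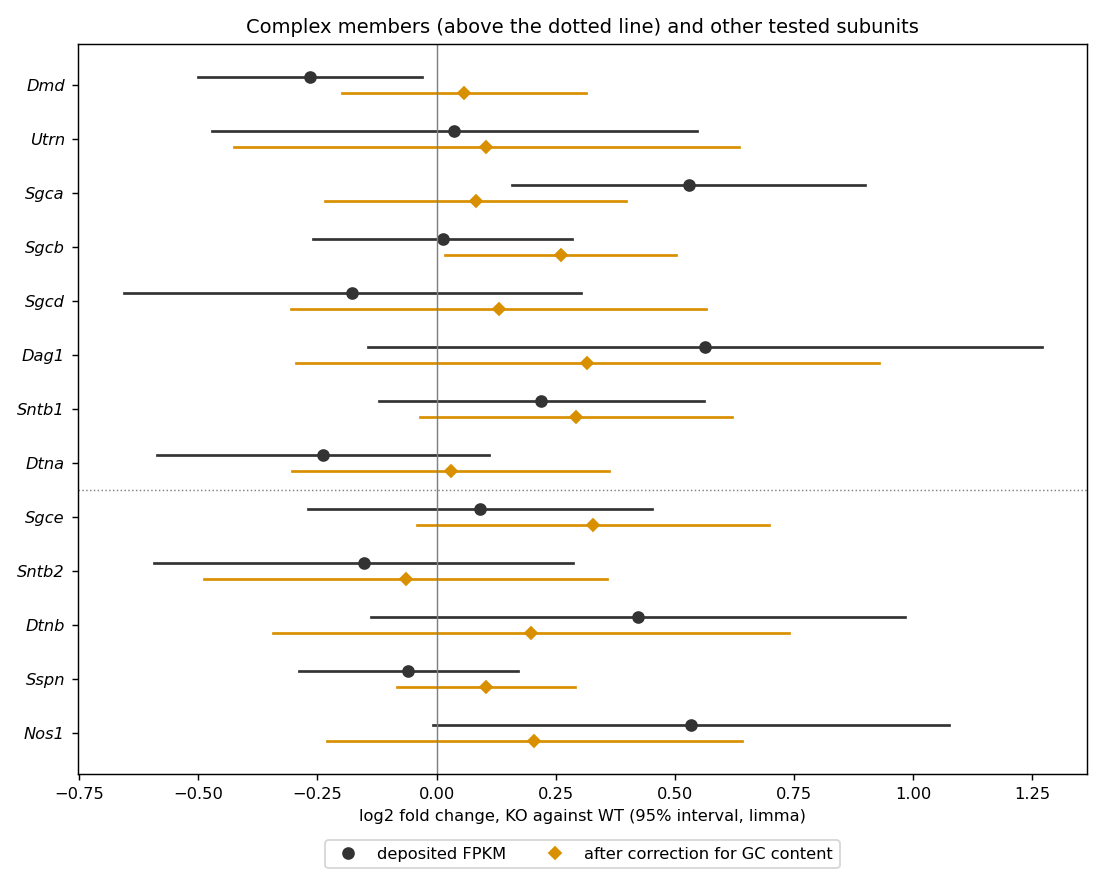
Log2 fold change of KO against WT (horizontal axis) with its 95% interval from limma, from the deposited FPKM (black circles) and after correction for GC content (orange diamonds), for the 8 members and 5 other tested subunits and partners. The black intervals of Dmd and Sgca leave out 0 and the orange ones include it, and the reverse holds for Sgcb.

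The members' log2 fold changes, with their sign, tended to rise with GC content, though not in strict order. Over all tested genes, the Spearman correlation of the log2 fold change with GC content was 0.704, which describes genes of the same 6 libraries and carries no test. The GC content of the members ran from 41.3% for *Dmd* to 57.1% for *Sgca*, and 6 of the 8 lay under the median of tested genes, 50.1%. Among 1329 tested genes within 2 percentage points of *Dmd*, the median log2 fold change was -0.32 and 9.26% were higher in the KO mice. *Dmd*, at -0.27, was close to that median. Among 2018 genes within 2 points of *Sgca* the median was 0.44 and 91.6% were higher in the KO mice, beside 0.53 for *Sgca*. Among 2651 genes near *Dag1*, at 54.2% GC, the median was 0.25, beside 0.56 for *Dag1*. *Sgcb*, at 44.0% GC, was at 0.013 where the median of 2184 genes was -0.24, so it lay above the middle of genes of like composition.

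After the GC correction the members changed places. None was called, against 0.117% of the 11985 genes with a GC content. All 8 log2 fold changes were above 0, from 0.029 for *Dtna* to 0.32 for *Dag1*, with a median of 0.12 over the members and 0.0012 over all genes. Without WT mouse 1 as well, an alternative added after seeing the data, *Dmd*, *Dag1* and *Dtna* were at -0.039, -0.012 and -0.10 and the other 5 stayed above 0. *Sgcb* had an unadjusted limma p of 0.0393 at a log2 fold change of 0.26 (SE 0.10, adjusted p = 0.417), and 5.72% of genes were higher in KO at such a p. Its corrected values were 29.9, 34.4 and 36.7 FPKM in WT mice and 40.5, 38.1 and 42.1 FPKM in KO mice. *Sntb1* was at a corrected log2 fold change of 0.29 (SE 0.14, limma adjusted p = 0.486). *Sgcb* and *Sntb1* were the 2 members whose corrected KO libraries all lay above the WT libraries, as did those of 8.97% of genes. *Utrn* and *Sgcd* were at corrected log2 fold changes of 0.10 and 0.13, with overlap. The corrected *Dag1* values were 20.4, 41.1 and 39.8 FPKM in WT mice and 41.6, 36.9 and 42.0 FPKM in KO mice, which overlapped.

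**Figure D3:**
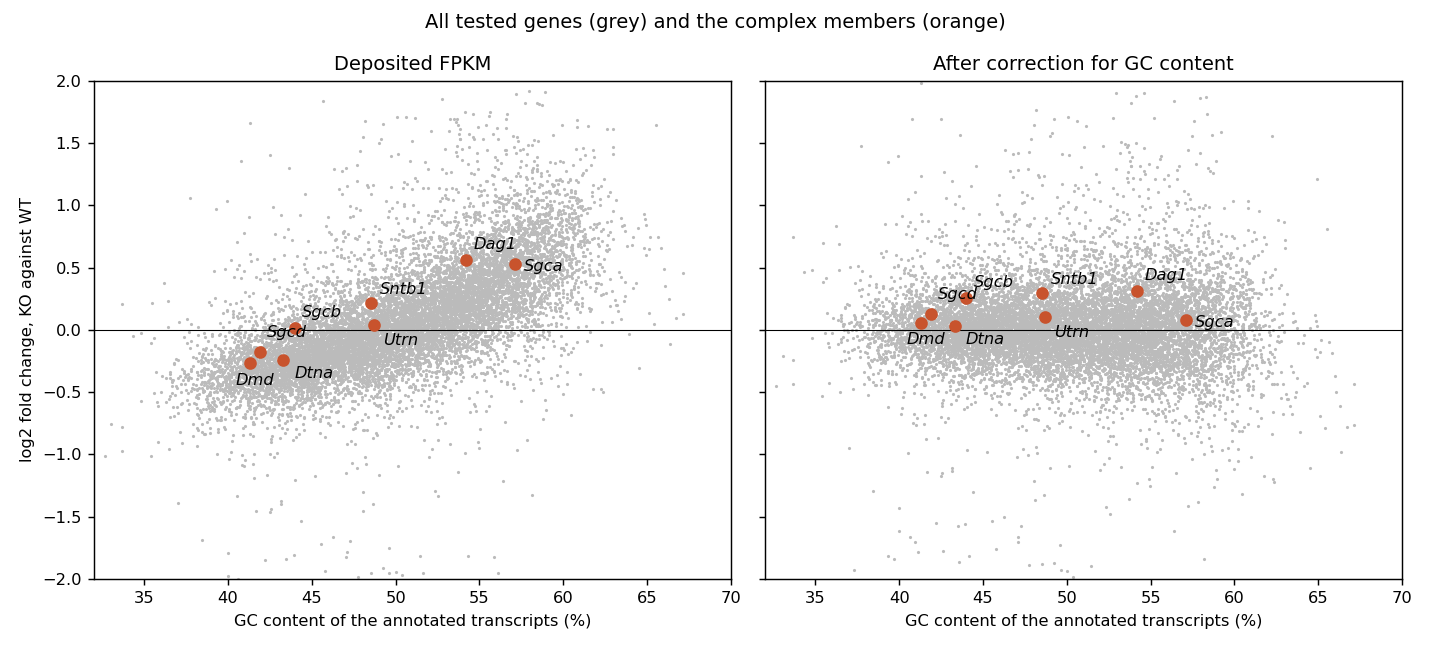
Log2 fold change of KO against WT (vertical axis) against the GC content of a gene's annotated transcripts in percent (horizontal axis), from the deposited FPKM (left) and after correction for GC content (right), with tested genes in grey and the members in orange. On the left the members tend to climb with GC content along the grey cloud, from Dmd at 41.3% to Sgca at 57.1%, and on the right all 8 lie between 0.029 and 0.32.

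Ratios within a library compare members of one complex without the scale of the library. They were chosen after the levels had been seen, and 7 were computed. The ratio of *Sgca* to *Dmd* was 2.66, 2.86 and 3.38 in WT mice 1, 7 and 8 and 5.31, 4.58 and 5.54 in KO mice 1, 7 and 8. The genotypes were separated, with a log2 difference of 0.80 (exact permutation p = 0.1). The ratio of *Sgca* to *Sgcb* was 2.19, 2.42 and 2.75 in the WT and 3.57, 3.45 and 3.46 in the KO mice, a log2 difference of 0.52 (exact permutation p = 0.1). The KO values were nearly the same in the 3 mice and lay above all WT values. After the GC correction the log2 differences were 0.025 for *Sgca* to *Dmd* and -0.18 for *Sgca* to *Sgcb*, and both overlapped.

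The ratio of *Dag1* to *Dmd* was 0.614, 1.26 and 1.22 in the WT and 1.71, 1.66 and 1.86 in the KO mice, a log2 difference of 0.83, which was 0.26 with overlap after the GC correction. The ratio of utrophin to dystrophin transcripts was 0.184, 0.139 and 0.102 in WT mice 1, 7 and 8 and 0.158, 0.219 and 0.142 in KO mice 1, 7 and 8. These overlapped, with a log2 difference of 0.31 (exact permutation p = 0.4), which was 0.047 with overlap after the GC correction (exact permutation p = 0.9). The ratio of *Dtna* to *Dmd* overlapped as well, with a mean of 1.30 ± 0.102 in WT and 1.33 ± 0.157 in KO mice (SD, n = 3).

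**Figure D4:**
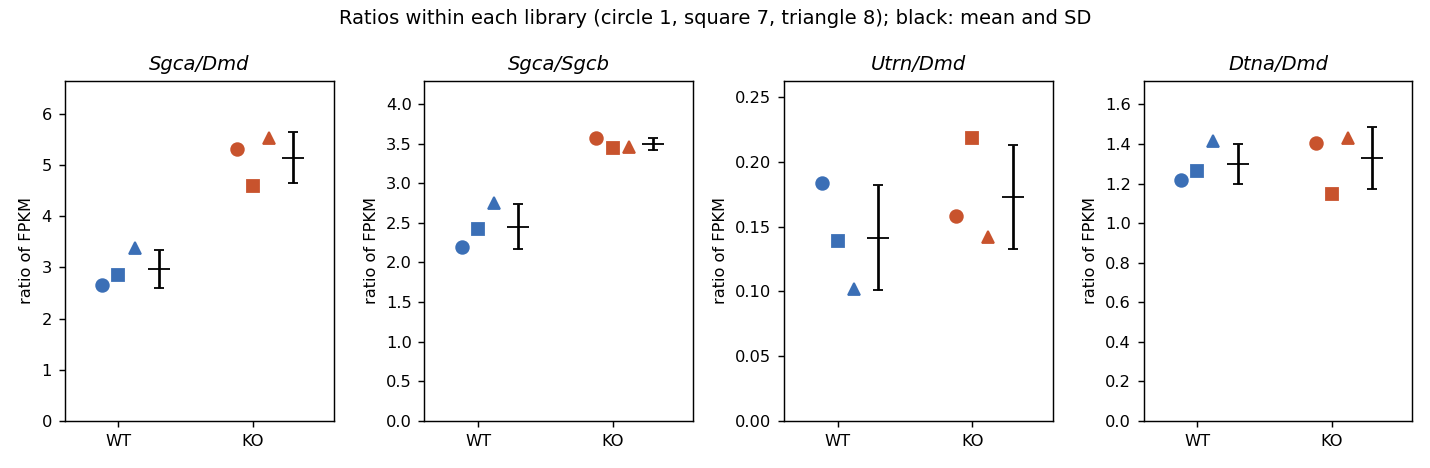
Ratio of FPKM between a pair of members within each library (vertical axes, each from 0) for WT and KO mice, 1 point per mouse, with the mean and SD in black. The KO points lie above the WT points for Sgca to Dmd and Sgca to Sgcb, and the genotypes overlap for Utrn to Dmd and Dtna to Dmd.

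Of 8 other subunits and close partners, 5 were tested and 0 called, and none had an unadjusted limma p under 0.05. In 1 of them, *Nos1*, every KO library was above every WT library, as for 18.3% of all tested genes, and in none was every KO library below. The median log2 fold change was 0.091, and 0.20 after the GC correction. *Sspn*, which encodes sarcospan, the small membrane protein that travels with the sarcoglycans, was the highest of the list. It measured 22.6, 20.7 and 20.6 FPKM in WT mice and 20.96, 19.8 and 20.6 FPKM in KO mice, a log2 fold change of -0.059 (SE 0.098, 95% interval -0.29 to 0.17) with overlap. *Nos1* encodes the neuronal nitric oxide synthase, which the complex holds at the membrane. It measured 4.44, 7.45 and 8.36 FPKM in WT mice and 10.5, 9.25 and 8.80 FPKM in KO mice, a log2 fold change of 0.53 (SE 0.23, limma adjusted p = 0.195) and of 0.21 after the GC correction. The most negative value was that of *Sntb2*, which encodes β2-syntrophin, at -0.15 (SE 0.19), and *Sgcz* was listed at 0 in all 6 libraries.

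Dystroglycan binds laminin only after enzymes of the endoplasmic reticulum and Golgi have built its sugar chain. All 17 genes of this list were tested and 0 were called, with a median log2 fold change of 0.028. Every KO library was above the WT libraries for 5 and below them for 2, beside 18.3% and 16.2% of all tested genes. At an unadjusted p under 0.05 there were 3 higher and 2 lower, beside 15.3% and 10.9% of all genes, and 1 higher and 0 lower after the GC correction. *Dpm3*, a subunit of the synthase that makes the mannose donor, measured 0.749, 1.15 and 1.28 FPKM in WT mice and 2.12, 3.63 and 2.25 FPKM in KO mice. All KO values were above the WT values, with a log2 fold change of 1.25 (SE 0.28, limma adjusted p = 0.0750), and of 0.89 after the GC correction. The catalytic subunit of the same synthase, *Dpm1*, was the highest gene of the list and was at a log2 fold change of -0.27 (SE 0.11, limma adjusted p = 0.180), which was 0.0023 after the GC correction. *B3galnt2*, which adds a sugar within the chain, had the most negative value, -0.51 (SE 0.21, limma adjusted p = 0.180).

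Of 9 genes that encode matrix ligands of dystroglycan or single chains of them, all were tested and 0 called. At an unadjusted limma p under 0.05, 2 were higher and 0 lower, beside 15.3% and 10.9% of all tested genes. The median log2 fold change was 0.23, or -0.030 after the GC correction. *Lamb2*, the laminin β2 chain found at the neuromuscular junction, measured 4.86, 7.98 and 7.79 FPKM in WT mice and 15.1, 19.5 and 14.5 FPKM in KO mice. The lowest KO value was above the highest WT value by more than the spread of the WT mice. Its log2 fold change was 1.26 (SE 0.22, limma adjusted p = 0.0667), and 0.72 after the GC correction (SE 0.15). *Lamb1*, the β1 chain, had the most negative value, -0.32 (SE 0.17). *Bgn*, the proteoglycan biglycan and the highest of the list, was at 0.55 (SE 0.25, limma adjusted p = 0.203) with overlap.

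Costameres are the ribs that tie the outer myofibrils to the membrane at the complex. Of 20 genes of the costamere and of membrane repair, all were tested and 0 called. Every KO library was above the WT libraries for 11 and below them for 0, beside 18.3% and 16.2% of all tested genes, and 10 were higher at an unadjusted p under 0.05, beside 15.3%. The median log2 fold change was 0.33, and 0.11 after the GC correction. At an unadjusted p under 0.05, 3 were then higher and 1 lower, beside 5.72% and 5.47% of all genes. *Flnc*, which encodes filamin C, a binding partner of the sarcoglycans, measured 22.0, 32.1 and 26.7 FPKM in WT mice and 43.0, 67.2 and 59.7 FPKM in KO mice. The genotypes did not overlap, and the log2 fold change was 1.06 (SE 0.20, limma adjusted p = 0.0673), or 0.53 after the GC correction. *Des*, which encodes desmin, the intermediate filament of muscle, measured 440, 556 and 646 FPKM in WT mice and 836, 869 and 948 FPKM in KO mice. Its log2 fold change was 0.71 (SE 0.16, limma adjusted p = 0.0750), or 0.40 after the GC correction. The most negative value was that of *Murc* (also named *Cavin4*), a muscle caveolar protein, at -0.33 (SE 0.18). With array weights 16 of the 51 tested genes of these 4 lists were called, beside 25.5% of all tested genes.

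**Figure D5:**
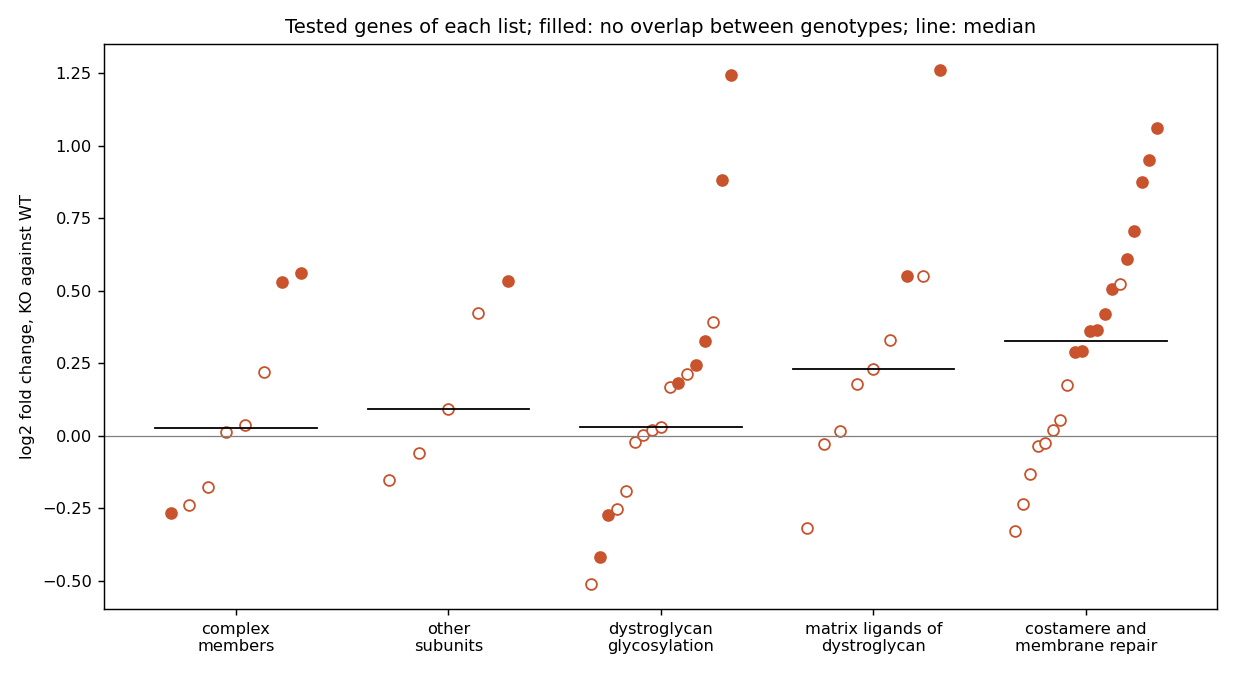
Log2 fold change of KO against WT (vertical axis) of the tested genes in the 8 members and in each of 4 partner lists, 1 point per gene, filled where the KO and WT libraries did not overlap, with the median of the list as a line. The largest values are those of Lamb2 at 1.26, Dpm3 at 1.25 and Flnc at 1.06, and the members lie between -0.27 and 0.56.

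For each member, the 2 genes with the most similar levels were found by Pearson correlation of log2(FPKM + 0.1) over the 6 libraries, among 6164 genes that averaged 5 FPKM or more. Each correlation rests on the same 6 libraries, and the values are descriptive. The GC content of such a gene was near that of the member in some cases, as for *Utrn* (48.7%) and *Eef1a1* (47.9%). In others it was not, as for *Sntb1* (48.5%) and *Rrp9* (58.7%) or *Sgcd* (41.9%) and *Rpl36al* (51.4%). For *Dmd* they were *Dram2* (0.996) and *Copb1* (0.995), both also under the median GC content. For *Sgca* they were *Rtn2* and *Mob2* (0.994 each), for *Dag1* *Polr1a* (0.993) and *Get4* (0.992), and for *Utrn* *Eef1a1* (0.982) and *Pgcp* (0.971). For *Sgcb* they were *Eef1g* (0.998) and *Gm12231* (0.994), for *Sgcd* *Rpl36al* (0.990) and *Gsk3b* (0.974), for *Sntb1* *Rrp9* (0.975) and *Ftsj1* (0.974), and for *Dtna* *Prkar2a* and *Dnajc27* (0.996 each). None of these genes was a member or on a partner list.

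The tissue carried the markers of skeletal muscle. The summed FPKM of the 14 myofiber genes was 52480 to 75420 in WT and 70240 to 81850 in KO mice, although *Myh4* was listed at 0 in every library. Whether a gene listed at 0, here or in the other lists, lacked transcripts was not tested. Single genes of the myofiber list varied more. *Myh7* was at 0.0513 to 24.3 FPKM in WT and 15.2 to 77.4 FPKM in KO mice. *Mb* was at 543 to 1825 FPKM in WT and 997 to 3150 FPKM in KO mice. WT mouse 8 was the lowest for both genes. The summed FPKM of smooth muscle and pericyte markers was 128.9 to 149.2 in WT and 127.2 to 142.6 in KO mice, and that of fibroblast markers 801.6 to 890.8 and 848.0 to 1138. Schwann cell markers summed to 29.6 to 109.6 and 33.7 to 143.0 FPKM, adipocyte markers to 234.3 to 443.9 and 304.2 to 622.9 FPKM, and leukocyte markers to 21.5 to 45.0 and 31.3 to 70.2 FPKM. The ranges of each of these lists overlapped between the genotypes. At an unadjusted limma p under 0.05, 5 of 7 adipocyte and 4 of 8 tested smooth muscle and pericyte markers were higher in KO mice, with median log2 fold changes of 2.02 and 0.47 over these lists, or 1.69 and 0.088 after the GC correction. So were 4 of 13 tested myofiber and 0 of 9 tested leukocyte markers, with medians of 0.46 and 0.47, or 0.00019 and 0.37 after the correction, and 15.3% of all tested genes. The adipocyte sum was 622.9 FPKM in KO mouse 7, beside 304.2 and 339.6 FPKM in KO mice 1 and 8. The smooth muscle gene *Acta2* was at 27.3 FPKM in KO mouse 7, beside 14.8 and 15.9 FPKM in KO mice 1 and 8. Of the 8 tested smooth muscle and pericyte markers, 6 were higher and 2 lower in KO mice. The lower ones were *Rgs5* at -0.33 and *Abcc9* at -0.17, or -0.015 and -0.036 after the GC correction. Every KO library of *Rgs5* was below every WT library without the correction, as for 16.2% of all tested genes. None of these markers was called. Their part in the members' values was not tested.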

How the data were processed

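RNA from the GAS muscle of 3 WT and 3 KO mice was made into libraries with a stranded mRNA kit per the labels, 1 library per mouse. TopHat and Cufflinks, with the genome GRCm38, are named in the submitters' processing notes, and their versions and the annotation release are not given in the sources used here. The authors deposited FPKM per gene and library, without counts. Depth was estimated from low FPKM values that fell on whole fragments (89.7% to 93.8% within a tolerance of 0.15), and covers counting error only. Whether Cufflinks counted by strand is not stated, so overlapping genes may share fragments.

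The genotypes were compared by limma 3.58.1 (R 4.3.3), allowing the variance to depend on mean level, on log2(FPKM + 0.1) for genes averaging 0.5 FPKM or more, which understates the change of low genes. Single members were tested by two-sided exact permutation. For GC content, taken from GENCODE M21 transcripts, each library's deviation from the mean was fitted by loess (span 0.3) and subtracted. Plots used matplotlib 3.10.9 (Python 3.11.15).

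The members and gene lists were chosen with earlier results of these data known. Named were all members and, of each partner list, the genes with the largest positive, the largest negative and the highest value. Some genes were left out of the partner lists and are not reported here, and of the listed genes only those named by this rule carry values. Alternatives covered the pseudocount, filter, scaling, variance model, weights, a replicate block, GC content, length and leaving out each library.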

Additional observations from a re-analysis of the deposited data

How the results depend on the processing

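No member and no gene of the 4 partner lists was called in any alternative other than array weights, with which 2 members (*Dmd* at -0.31 and *Sgca* at 0.57) and 16 list genes were called. The count of all called genes, 40, was 3147 with array weights, 11 with a pseudocount of 1, 22 with a filter of 0.1 FPKM, 20 with no filter beyond a value above 0 in 1 library, 1 among genes above 0 in every library, 18 with upper quartile scaling, 19 without the variance trend, 14 with the GC correction, and 11 to 38 when 1 library was left out. With the GC correction and without WT replicate 1 together, an alternative chosen after seeing the data, it was 15. The cause of these shifts was not tested.

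Some log2 fold changes turned sign. With the GC correction *Dmd* was at 0.057, *Sgcd* at 0.13 and *Dtna* at 0.029. *Sgcb*, at 0.013, was at -9.5e-05 with median ratio scaling, -0.018 with upper quartile scaling, -0.037 with the length correction, and -0.040 to 0.096 when 1 library was left out. With array weights *Utrn* was at -0.12 and *Sgcd* at 0.11. With 1 library left out, *Utrn* ranged from -0.14 to 0.19 and *Sgcd* from -0.35 to 0.027. With the GC correction and without WT replicate 1, *Sgcd* was at 0.060 and *Dag1* at -0.012, while *Dmd* and *Dtna*, at -0.039 and -0.10, had the sign of the values without the correction. *Dmd* (-0.32 to -0.23), *Sgca* (0.40 to 0.66), *Dag1* (0.17 to 0.76), *Sntb1* (0.16 to 0.32) and *Dtna* (-0.34 to -0.12) kept their sign when any 1 library was left out.

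The numbers 1, 7 and 8 gave no sign of a pairing of the samples. Same-numbered WT and KO libraries deviated with correlations of -0.025, -0.08 and 0.034, and differently numbered ones with -0.066 to 0.086. With 3 libraries per genotype, such correlations cannot exclude a pairing. With a replicate block 13 genes were called and, with the GC correction as well, 12, among them no member. Both genotypes hold the same numbers, so the block leaves each log2 fold change as it was and alters only its SE and p. With 3 libraries per genotype, the 95% interval of a member's log2 fold change was narrowest for *Dmd* (-0.50 to -0.031) and widest for *Dag1* (-0.14 to 1.27).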

Other observations

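Of 9 genes of regenerating or denervated fibers, 5 were tested and 1, *Ncam1*, was called, beside 0.324% of all tested genes. *Ncam1*, a cell adhesion molecule of the synapse and of denervated fibers, was at 1.12, 1.31 and 1.19 FPKM in WT mice 1, 7 and 8 and at 2.90, 3.46 and 3.84 FPKM in KO mice 1, 7 and 8, a log2 fold change of 1.41 before and after the GC correction (limma adjusted p = 0.0300 before it). *Myh8*, the perinatal myosin, was at 0.776, 0.70 and 0.821 FPKM in WT mice 1, 7 and 8 and at 1.32, 3.21 and 1.39 FPKM in KO mice 1, 7 and 8. It was not called, at a log2 fold change of 1.15 (SE 0.34, limma adjusted p = 0.105), or 1.23 after the GC correction. *Myod1*, *Myog* and *Chrna1* overlapped between the genotypes, at log2 fold changes of 0.41, 0.23 and -0.35. *Myh3*, the embryonic myosin, was between 0.171 and 0.522 FPKM in the 6 libraries and under the filter, and *Mymx*, a fusion factor of myoblasts, was listed at 0. *Chrng* was under the filter as well, between 0.0475 and 0.220 FPKM with overlap of the genotypes, and *Mymk* was under 0.1 FPKM in every library. Of 10 genes of nuclei under the neuromuscular junction, all tested, 0 were called by limma and 2 were higher at an unadjusted p under 0.05, beside 15.3% of all tested genes. *Rapsn* and *Dok7*, which cluster acetylcholine receptors at the junction, were the 2 genes of that list with KO libraries above all WT libraries, beside 18.3% of all tested genes. Over the list 6 genes were higher and 4 lower in KO mice. The lower ones were *Chrne*, *Chrna1*, *Chrnb1* and *Musk*, at -0.079, -0.35, -0.060 and -0.19. The list median was 0.077, or -0.14 after the GC correction. At an unadjusted limma p under 0.05, 1 was then higher and 1 lower, beside 5.72% and 5.47% of all genes. *Dok7* measured 1.99, 2.10 and 2.96 FPKM in WT mice and 4.46, 4.76 and 4.95 FPKM in KO mice, a log2 fold change of 0.99 (limma adjusted p = 0.0667), which was 0.37 after the GC correction, and *Rapsn* went from 0.99 to 0.44. These genes were chosen after their values were seen.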
